A study of Mus musculus with 9 samples.

Results

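The genes described here are 10 genes of major histocompatibility complex (MHC) class I antigen processing: H2-K1, H2-D1, B2m, Tap1, Tap2, Tapbp, Psmb8, Psmb9, Psmb10 and Nlrc5. They were taken by symbol from the deposited table of read counts, where all 10 were found among 23466 genes, and all 10 passed the filter on low counts that left 15117 genes to test. The libraries were made from RNA of group 2 innate lymphoid cells (ILC2s), resident lymphocytes that respond to interleukin 33 and make type 2 cytokines. Wild type C57/Bl6 mice, 10 weeks old, were the source of all 3 groups, each with 3 libraries. The first came from brain meninges without injury, the second from brain meninges 24 h after an 80 kdyn contusion of the spinal cord, and the third from lung without injury. Cells were sorted as CD45+, DAPI-, lineage-negative, ST2+ and Thy1+, and 5 mice were pooled per group. Since the labels do not say whether every library had a separate pool, p-values reflect only the variation among these libraries, part or all of which could be technical. No sham-operated group and no injured lung were analysed here, so effects of surgery and of contusion cannot be told apart.

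MHC class I molecules show fragments of a cell's own proteins to CD8 T cells and to natural killer cells. The proteasome cuts proteins into peptides, the TAP transporter moves the peptides into the endoplasmic reticulum, and tapasin holds an empty class I molecule beside the transporter until a peptide fits. The loaded heavy chain then travels to the surface bound to beta-2 microglobulin. In lymphocytes, and in other cells exposed to interferon gamma, a set of induced catalytic subunits replaces the constitutive ones and gives the immunoproteasome, whose cuts favour peptides that bind class I. NLRC5 is the transactivator of class I genes and acts through factors bound at a conserved element of their promoters.

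Library totals ranged from 13407277 to 18253462 counts, and a count of 3 in a library corresponded to 0.163 to 0.239 CPM (counts scaled to a common library size). Injured meninges 2 stood apart, with 13465 genes detected against up to 18452 in another library and a median Spearman correlation across genes of 0.80 with its own group. All 3 injured libraries correlated better with uninjured meninges (0.859, 0.802 and 0.859) than with their own group (0.825, 0.797 and 0.827). Markers of the sorted cell were present in every group, with a summed level of the 8 genes on the ILC2 list of 7409 to 7853 CPM (uninjured meninges), 8023 to 10763 CPM (injured meninges) and 7400 to 9387 CPM (lung). Within that list 1 of 8 genes passed the test with injury: Thy1, a surface marker used for the sort, fell from 167 to 279 CPM in uninjured meninges to 51.4 to 92.5 CPM in injured meninges (log2 fold change -1.73 ± 0.29, edgeR adjusted p = 0.022). That call was lost in the fit of only the 6 libraries compared (adjusted p = 0.10) and without uninjured meninges 1 (0.13), uninjured meninges 3 (0.067), injured meninges 2 (0.064) or injured meninges 3 (0.089). Rora, Il7r and Il2ra had every injured library above every uninjured one and did not pass (adjusted p = 0.075, 0.22 and 0.58). Genes of other cells were present too, and the lung epithelial list (Sftpc, Sftpa1, Scgb1a1, Epcam) summed to 635 to 2036 CPM in lung against 3.76 to 10.3 in uninjured meninges and 7.90 to 27.6 in injured meninges, where Sftpc was at 0. The dendritic cell and MHC class II list of 7 genes summed to 49.8 to 190.2, 30.5 to 239 and 284 to 321 CPM in uninjured meninges, injured meninges and lung, and Siglech was at 0 in injured meninges. In the same order the 4 endothelial genes summed to 42.8 to 136, 42.6 to 102 and 173 to 498 CPM, the 4 fibroblast genes to 1.61 to 59.4, 0.877 to 25.7 (Pdgfra at 0) and 72.8 to 166 CPM, and the 6 monocyte and macrophage genes to 5.84 to 77.1 (Cd14 at 0), 61.4 to 132 and 34.3 to 479 CPM. Summed over each list, the epithelial, endothelial, fibroblast and MHC class II genes thus lay higher in lung than in both meningeal groups. Single genes did not all follow their list, and Epcam, Dcn, Xcr1 and H2-Eb1 did not have their highest mean in lung. Across uninjured meninges, injured meninges and lung the 6 T cell genes summed to 9.87 to 48.5, 1.69 to 103 and 10.3 to 31.0 CPM. The 6 B cell genes summed to 29.8 to 60.1, 3.07 to 75.2 and 32.0 to 75.5 CPM. Both highest injured values were in injured meninges 2. The neural list, mostly Mbp, summed to 150 to 194, 77.7 to 202 and 99.9 to 149 CPM (Gfap at 0 in lung). Granulocyte, natural killer and erythroid lists reached at most 44.4, 13.9 and 12.4 CPM in a library. Class I genes are active in nearly all nucleated cells, and the part of these other cells, or of the Thy1 difference, in the values below was not tested.

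At 24 h after injury, Psmb9 stood at 3.69 ± 0.48 CPM in meningeal ILC2s against 27.2 ± 4.89 CPM without injury (SD, n = 3 each). This was the largest fold difference of the 10 genes with injury. Nlrc5 stood at 79.0 ± 9.83 against 125 ± 14.5 CPM. The 3 most abundant genes, B2m, H2-K1 and H2-D1, had fitted injury differences of -0.23 to -0.03 on the log2 scale. None of the 10 genes passed an adjusted p of 0.05 in edgeR's quasi-likelihood test in any comparison. The share of all tested genes that passed was 0.192% between injured and uninjured meninges (29 genes), 0.635% between uninjured meninges and lung (96 genes) and 1.05% between injured meninges and lung (159 genes). At an unadjusted p under 0.05 the 10 genes gave 2, 2 and 1, beside 8.94%, 7.98% and 13.3% of all genes in the same order. DESeq2, run on the same counts, called 1, 2 and 1 of the 10, beside 2.86%, 3.53% and 7.59% of the genes it tested. These were Psmb9 in both comparisons that involve injury, and Tap1 and Nlrc5 between uninjured meninges and lung. In bulk RNA of sorted cells, fewer cells that express a gene and less RNA per cell cannot be told apart.

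**Figure D1:**
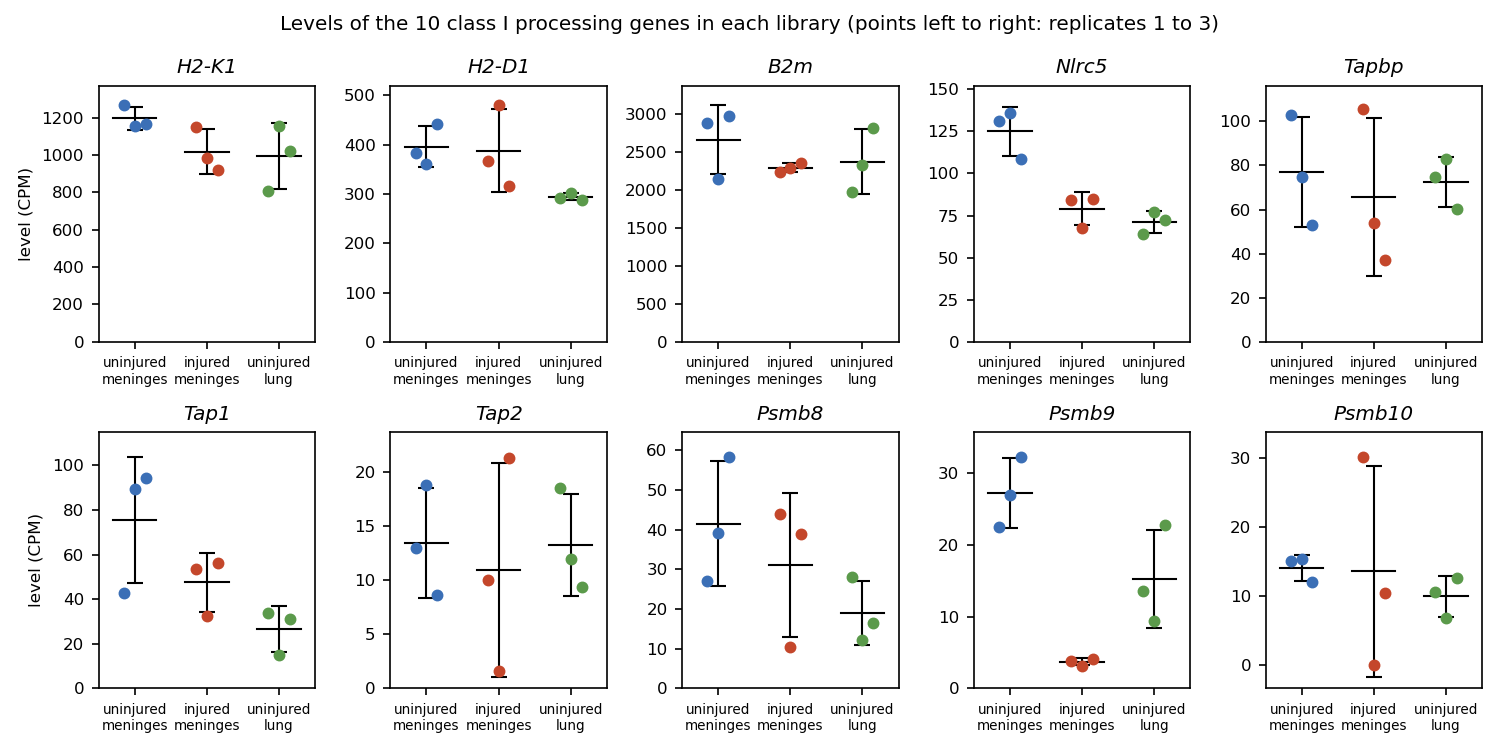
Level of each of the 10 genes in CPM (vertical axis, from 0 or from the lower error bar) in every library, with points for single libraries and bars for the group mean ± SD (n = 3). Psmb9 lies between 3.18 and 4.14 CPM in the injured meninges libraries and between 9.43 and 32.2 CPM in the others, while Psmb10 and Tap2 spread most within injured meninges.

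The cell-surface complex consists of a heavy chain, encoded by H2-K1 or H2-D1, and the light chain encoded by B2m. These genes were among the most abundant messages of the cells. Per kilobase of annotated exon, B2m averaged 3102, 2673 and 2761 CPM in uninjured meninges, injured meninges and lung, which placed it 8, 7 and 7 among 23355 genes with a length. H2-K1 averaged 407, 346 and 338 CPM per kilobase (places 22, 23 and 23) and H2-D1 153, 150.3 and 114 CPM per kilobase (places 65, 64 and 116). Together the 3 genes made up 90.2% to 95.7% of the summed CPM of the 10 genes in each library.

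The promoters of these 3 genes carry the element that NLRC5 and its partner factors use, and the stretch between its X2 and Y boxes is shown because the 3 genes share its spacing. In RefSeq promoter windows (GRCm38.p6, 250 bases before to 50 after a start site) TGACG, the core of the X2 box, was searched together with CCAAT, the Y box, which reads ATTGG on the other strand. TGACG was followed by ATTGG starting exactly 25 bases further on in 3 of the 8 genes with a window (Tap2 and Nlrc5 have none). The pattern, searched on both strands, was found in 0.0944% of 32851 windows, those of 27 genes in all. Among the 77 genes with a window on the related gene lists given below, only H2-M3 had it. The sequences read 5′ to 3′ along the gene's strand, with both boxes in capitals.
B2m, chr2:122147609-122147638, plus strand: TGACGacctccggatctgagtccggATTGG
H2-K1, chr17:34000359-34000388, minus strand: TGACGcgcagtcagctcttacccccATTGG
H2-D1, chr17:35262993-35263022, plus strand: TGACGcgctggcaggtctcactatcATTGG
The first base lies 78 bases before the start site in B2m, 41 or 55 before the 2 start sites of H2-K1, and 101 before that of H2-D1. Since the boxes are identical by the search, only the 20 bases between them can differ, and there H2-K1 and H2-D1 match at 13, B2m and H2-K1 at 3, and B2m and H2-D1 at 2. Taken alone these letters are common, since TGACG was present in 20.8% and CCAAT in 37.4% of all windows. A match describes the sequence only and does not show that a factor was bound in these cells.

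B2m was measured at 2882, 2143 and 2978 CPM in the uninjured meninges libraries, 2236, 2297 and 2363 CPM in injured meninges, and 1971, 2328 and 2824 CPM in lung. The 3 groups overlapped, and the injured libraries lay closest together. Its log2 fold change was -0.21 ± 0.17 (SE) between injured and uninjured meninges, with a 95% interval of -0.57 to 0.14 and an edgeR adjusted p of 0.78. An interval of this width holds a level in injured meninges up to 1.49-fold lower or 1.10-fold higher, so B2m is among the genes whose injury difference was bounded most tightly here.

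H2-K1 encodes the K heavy chain, and its level was 1269, 1157 and 1165 CPM in uninjured meninges, 1151, 982 and 919 CPM in injured meninges, and 807, 1155 and 1019 CPM in lung. All 3 uninjured meninges libraries lay above both other groups, though the margin over the highest injured and the highest lung library was small. The fitted difference was -0.23 ± 0.17 with injury (adjusted p = 0.75 in edgeR) and 0.27 ± 0.17 for uninjured meninges over lung (adjusted p = 0.83).

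H2-D1, the D heavy chain, was at 384, 361 and 442 CPM in uninjured meninges, 367, 480.0 and 315 CPM in injured meninges, and 292, 303 and 288 CPM in lung. The 3 lung libraries lay below every meningeal library, injured or not, and the meningeal groups overlapped. Uninjured meninges exceeded lung by 0.43 ± 0.21 on the log2 scale (95% interval -0.01 to 0.87, edgeR adjusted p = 0.64) and injured meninges exceeded it by 0.40 ± 0.21 (adjusted p = 0.44). The injury difference was -0.03 ± 0.21, with an interval of -0.47 to 0.41.

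H2-K1 supplied 67.2% to 79.2% of the summed counts of the 2 heavy chains, and B2m stood at 1.41 to 2.16 times that sum in CPM in each library. Heavy chain genes resemble each other, and how the counting treated shared reads was not stated. The values of single genes are uncertain where such reads could be split or left uncounted. In the GENCODE M21 coding sequences, 10.1% of the 50-base stretches of H2-K1 and 10.3% of those of H2-D1 recur in the other gene, and 12.9% and 24.2% recur in any other gene. The longest run that the 2 genes share is 91 bases, from coding base 738 of H2-K1 and 747 of H2-D1, and is shown because a read inside it fits both genes equally.
Shared run of H2-K1 and H2-D1: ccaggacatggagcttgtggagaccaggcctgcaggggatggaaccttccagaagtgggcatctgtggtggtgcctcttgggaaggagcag
With the counts of both genes summed, the difference was -0.18 with injury (adjusted p = 0.82 in edgeR) and 0.31 for uninjured meninges over lung (adjusted p = 0.70). A sum does not recover reads left uncounted.

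Nlrc5, the class I transactivator, was measured at 131, 136 and 109 CPM in uninjured meninges, 84.4, 67.6 and 84.9 CPM in injured meninges, and 64.0, 76.9 and 72.3 CPM in lung. Every uninjured meninges library lay above every library of the other groups, while injured meninges and lung overlapped. The fitted level was 1.58-fold lower in injured than in uninjured meninges (log2 fold change -0.66 ± 0.28, 95% interval -1.26 to -0.07), with an unadjusted p of 0.032 and an edgeR adjusted p of 0.52. It was 1.76-fold higher in uninjured meninges than in lung (0.82 ± 0.28, 0.22 to 1.41), with an unadjusted p of 0.011 and an adjusted p of 0.32. Both comparisons use the same uninjured meninges libraries and are not independent of each other. DESeq2 called the second (adjusted p = 0.0096), and over all 18 alternatives the adjusted p for it ran from 0.0096 to 0.73. Injured meninges and lung differed by 0.15 ± 0.28.

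Peptide transport needs TAP1 and TAP2, which pair to form the transporter, and tapasin, encoded by Tapbp. Tap1 was at 43.0, 89.4 and 94.3 CPM in uninjured meninges, 53.7, 32.4 and 56.5 CPM in injured meninges, and 34.0, 15.0 and 31.2 CPM in lung. Uninjured meninges lay above lung in all 3 libraries, with uninjured meninges 1 nearest to it, and injured meninges overlapped both other groups. The fitted level was 2.82-fold higher in uninjured meninges than in lung (log2 fold change 1.50 ± 0.46, 95% interval 0.53 to 2.47), with an unadjusted p of 0.0049 and an edgeR adjusted p of 0.23. DESeq2 gave an adjusted p of 0.045 for it, and the adjusted p ran from 0.045 to 0.65 over the 18 alternatives. The injury difference of Tap1 was -0.67 ± 0.45 (-1.62 to 0.28, adjusted p = 0.71 in edgeR).

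Its partner Tap2 was scarcer per length, at 3.56, 2.90 and 3.51 CPM per kilobase of exon against 13.8, 8.68 and 4.88 for Tap1 in uninjured meninges, injured meninges and lung. Tap2 was measured at 13.0, 18.8 and 8.60 CPM in uninjured meninges, 9.98, 1.59 and 21.3 CPM in injured meninges, and 18.5, 11.9 and 9.35 CPM in lung. The groups overlapped throughout, and injured meninges 2, the library that stood apart, held the lowest value with 20 counts. Its fitted differences were -0.29 ± 0.88 with injury and 0.02 ± 0.88 for uninjured meninges over lung, and the second turned negative under other scalings (-0.01 with relative log expression factors). An interval of -2.16 to 1.58 for the injury difference leaves room for a 4.48-fold lower and a 2.98-fold higher level, so a change of that size was not detectable.

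Tapbp was at 103, 74.8 and 53.1 CPM in uninjured meninges, 106, 54.1 and 37.0 CPM in injured meninges, and 74.9, 82.7 and 60.2 CPM in lung. The groups overlapped, and the fitted differences were -0.23 ± 0.40 with injury and 0.08 ± 0.40 for uninjured meninges over lung (edgeR adjusted p = 0.92 and 0.99).

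The immunoproteasome is defined by the subunits encoded by Psmb8, Psmb9 and Psmb10, which take the places of the constitutive subunits encoded by Psmb5, Psmb6 and Psmb7. Psmb9 (ENSMUSG00000096727) was measured at 22.5, 27.0 and 32.2 CPM in uninjured meninges, 3.76, 3.18 and 4.14 CPM in injured meninges, and 13.6, 9.43 and 22.8 CPM in lung. In raw counts these were 413, 418 and 480, then 63, 40 and 66, then 221, 128 and 356 reads, far above the 3 counts that a count of 0 allows. All 3 injured libraries lay below all 6 others, and the uninjured meninges and lung libraries overlapped. The low value was not restricted to injured meninges 2, since the other injured libraries were within 1 CPM of it. Thy1 had its lower levels in the same 3 libraries.

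Psmb9 was 7.35-fold lower in injured than in uninjured meninges (log2 fold change -2.88 ± 0.71, 95% interval -4.38 to -1.37), with an unadjusted p of 0.00096 and an edgeR adjusted p of 0.18. Against lung it was 4.13-fold lower (-2.04 ± 0.69, -3.50 to -0.58), with an unadjusted p of 0.0091 and an adjusted p of 0.19. These comparisons share the injured libraries. DESeq2 gave adjusted p-values of 2.83e-07 and 0.00039, so the call depends on the tool, and over the 18 alternatives the adjusted p ran from 2.83e-07 to 0.57 and from 0.00039 to 0.51. The fold change moved little, from -3.00 to -2.74 over all alternatives for injured against uninjured meninges. Between uninjured meninges and lung Psmb9 differed by 0.83 ± 0.66 (-0.57 to 2.24, adjusted p = 0.90 in edgeR).

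Psmb8 encodes the subunit that cuts after hydrophobic residues. It was at 27.1, 39.1 and 58.4 CPM in uninjured meninges, 44.0, 10.4 and 38.9 CPM in injured meninges, and 28.0, 12.3 and 16.5 CPM in lung. The groups overlapped, and the lowest value of all was again in injured meninges 2. Psmb8 differed by -0.42 ± 0.59 with injury and by 1.14 ± 0.60 between uninjured meninges and lung (edgeR adjusted p = 0.90 and 0.70), and without injured meninges 2 the injury difference was near 0 (-0.0023).

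Psmb10, the third induced subunit, was at 15.0, 15.4 and 12.0 CPM in uninjured meninges, 30.2, 0 and 10.5 CPM in injured meninges, and 10.5, 6.78 and 12.6 CPM in lung. Injured meninges thus held both the highest library and the only 0 among the 90 values of the 10 genes, a count of 0 that allows up to 0.239 CPM in injured meninges 2. Its injury difference of -0.06 ± 1.20 (-2.61 to 2.49) could not be told from a 6.09-fold lower or a 5.62-fold higher level. Without injured meninges 2 it was 0.53, and without injured meninges 1 it was -1.43.

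**Figure D2:**
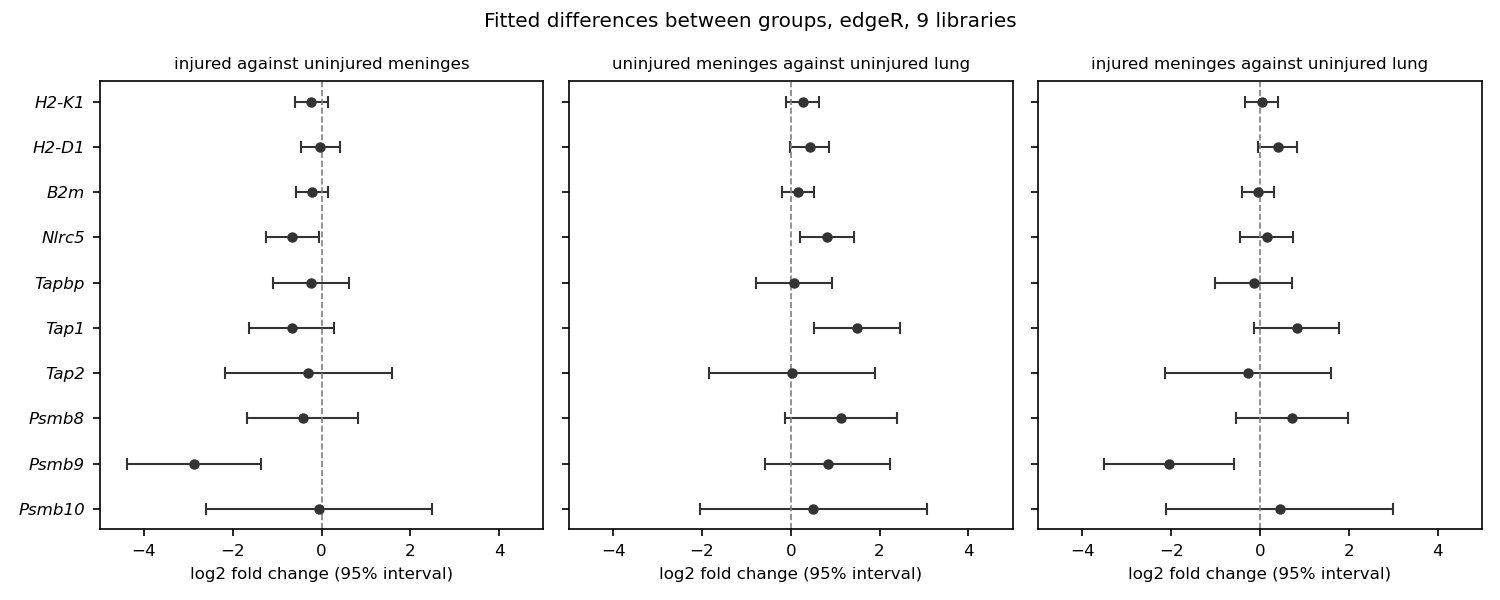
Fitted log2 fold changes (horizontal axis) of the 10 genes in the 3 comparisons, as points with 95% intervals from the fit of all 9 libraries. Psmb9 lies at -2.88 and -2.04 in the comparisons with injured meninges, the B2m and heavy chain intervals are narrow, and those of Tap2 and Psmb10 span several units.

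Each induced subunit was also set against the constitutive subunit whose place it takes, as a log2 ratio of CPM + 0.5 within a library. Exact two-sided permutation tests were run for 9 contrasts, and with 3 libraries against 3 the smallest p they can give is 0.10. The ratio of Psmb9 to Psmb6 was -0.16, 0.65 and 2.04 in uninjured meninges, -1.18, -2.21 and -2.00 in injured meninges, and -0.30, 1.59 and 1.23 in lung. Injured libraries lay below all others, by 2.64 on average against uninjured meninges (-2.64, exact p = 0.10, adjusted 0.23), while uninjured meninges and lung averaged 0.84 ± 1.11 and 0.84 ± 1.00. Psmb6 itself was at 25.2, 17.0 and 7.46 CPM in uninjured meninges and 9.14, 16.5 and 18.0 CPM in injured meninges, which overlap.

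The ratio of Psmb8 to Psmb5 stood the other way, with means of 2.96 ± 0.43, 4.10 ± 0.51 and 3.50 ± 1.02 for uninjured meninges, injured meninges and lung. Every injured library lay above every uninjured meninges library (difference 1.14, exact p = 0.10, adjusted 0.23). Psmb5 was scarce, at 4.08, 4.90 and 4.97 CPM in uninjured meninges and 3.41, 0 and 1.44 CPM in injured meninges, so this ratio rests on few reads and on the added 0.5 CPM, and it was 0.45 with 2 CPM added. Psmb10 to Psmb7 averaged 0.15 ± 0.23, -2.19 ± 4.18 and -0.67 ± 0.67 in uninjured meninges, injured meninges and lung. Every uninjured meninges library lay above every lung library in this ratio (difference 0.82, exact p = 0.10, adjusted 0.23), and injured meninges overlapped both. The wide spread came from injured meninges 2, at -6.92, where Psmb10 was at 0 and Psmb7 at 60.2 CPM.

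**Figure D3:**
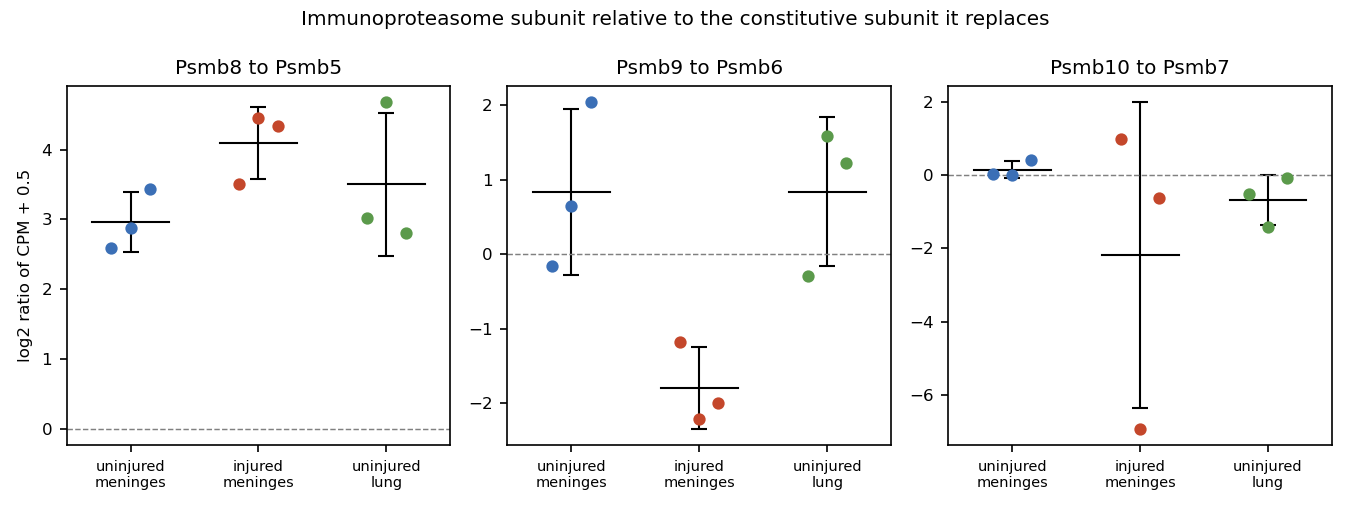
Log2 ratio of each induced subunit to the constitutive subunit it replaces (vertical axis, CPM + 0.5), per library, with group mean ± SD (n = 3) and a dashed line at equal values. For Psmb9 to Psmb6 the injured libraries lie between -2.21 and -1.18 and all others at -0.30 or above.

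The position of 4 of the 10 genes bears on how their reads are assigned. Psmb9, Tap1, Psmb8 and Tap2 lie within 34.3 kb of chromosome 17 in GENCODE M21 (GRCm38). Psmb9 and Tap1 run head to head from RefSeq start sites 226 bases apart, and their annotated genes overlap by 212 bases. The antisense gene Gm20496 overlaps Psmb8 by 2139 bases and Tap2 by 1923 bases. No source used here states the strand setting of the counting, and without strand the reads of such overlaps cannot be told apart. Psmb9 and Tap1 did not have the same profile: Tap1 in injured meninges reached 53.7 and 56.5 CPM in libraries where Psmb9 was at 3.76 and 4.14 CPM.

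Seen as a group, all 10 genes had a negative fitted injury difference, with a median log2 fold change of -0.26, beside 50.2% of all tested genes and a median near 0 (-0.0047). In 4 of the 10 (H2-D1, Tap2, Tapbp and Psmb10) the sign turned when a library was left out. In 3 (Psmb9, Nlrc5 and H2-K1) every injured library lay below every uninjured one, beside 6.79% of all genes, and in none did every injured library lie above, beside 5.35%. For uninjured meninges over lung all 10 differences were positive, with a median of 0.46, beside 50.1% of all genes, though Tap2 turned negative under other scalings and filters and Tap2 and Tapbp when a library was left out. Here 4 (Tap1, Nlrc5, H2-D1 and H2-K1) had every meningeal library above every lung library, beside 7.63% of all genes, and none lay below, beside 10.6%. The 2 comparisons share the uninjured meninges libraries, so their signs are not independent. Between injured meninges and lung 6 differences were positive, with a median of 0.09, beside 49.5% of all genes, and the groups were apart for H2-D1 (higher, beside 6.38%) and Psmb9 (lower, beside 11.4%). The lung libraries in these comparisons also held the higher summed levels of the epithelial, endothelial, fibroblast and MHC class II lists given above.

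Likeness of profiles was measured as the root mean square difference of centred log2 CPM over the 9 libraries, among 8110 genes of at least 10 CPM on average, and is a description of libraries that share depth and preparation. H2-K1 and B2m differed by 0.19 and were nearest to each other among the 10 genes. B2m was only the 26th nearest of all genes to H2-K1, and H2-K1 the 37th nearest to B2m. Each of the 2 profiles had an SD of 0.20, so 0.19 is about their distance from a flat profile. Tap1 and Psmb8 differed by 0.43, and Psmb8 was the 14th nearest of all genes to Tap1. Among the genes nearest to Tap1 were Iqce (0.33), Upf2 (0.34), Ndufb5 (0.37) and Sp110 (0.40). Psmb10, Psmb9 and Tap2 lay farthest from the rest of the 10, and their own profiles also spread most (SD 2.16, 1.23 and 1.03). The member nearest to Psmb10 was Tap2 (1.40, rank 294 among all genes), that nearest to Psmb9 was Nlrc5 (1.07, rank 669), and that nearest to Tap2 was Psmb8 (0.89, rank 1047). The genes nearest to Psmb9 were Gm43963 (0.37), Mesdc2 (0.51), Plcl2 (0.52), Flrt2 (0.54) and Mns1 (0.56). These were picked for profiles like that of Psmb9 in these same libraries, so lower levels with injury follow from the choice. Flrt2, which encodes a membrane adhesion protein, stood at 41.5 CPM in injured against 163 CPM in uninjured meninges (log2 fold change -1.97 ± 0.28).

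Other genes related to the pathway were read from 7 lists. The peptide loading and trimming list holds the chaperones and peptidases that work with TAP and tapasin. None of its 8 genes passed the edgeR test in any comparison, and DESeq2 also called none. An unadjusted p under 0.05 was reached by 0, 0 and 1, beside 8.94%, 7.98% and 13.3% of all genes. Pdia3, the ERp57 oxidoreductase of the loading complex, averaged 276 ± 20.8, 302 ± 23.7 and 282 ± 35.4 CPM in uninjured meninges, injured meninges and lung. Calr, which encodes the chaperone calreticulin, averaged 124 ± 12.4, 102 ± 50.1 and 121 ± 40.2 CPM. Erap1, the aminopeptidase that trims peptides, averaged 139.8 ± 33.3, 142 ± 76.5 and 123 ± 7.28 CPM. All 3 overlapped between the groups, and the list's median log2 fold change was 0.08 with injury.

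None of the 12 constitutive catalytic, activator and assembly genes and none of the 11 other 20S core genes passed the edgeR or the DESeq2 test in any comparison, with medians of -0.08 and -0.31 for injury. An unadjusted p under 0.05 was reached by 0, 1 and 1 of the 12 and by 1, 0 and 0 of the 11. The shares of all genes were 8.94%, 7.98% and 13.3%. Psme1 and Psme2 encode the interferon-inducible PA28 activator of the proteasome. Psme1 was at 161, 219.7 and 124 CPM in uninjured meninges, 176, 184 and 103 CPM in injured meninges and 92.4, 106 and 90.6 CPM in lung, so uninjured meninges lay above lung (0.81 ± 0.30, edgeR adjusted p = 0.39). Psme2 means were 22.2 ± 5.17 CPM before and 14.4 ± 1.26 CPM after injury, without overlap (adjusted p = 0.84). Psma2, a structural subunit of the core, had the smallest p of its list, at 84.3 ± 29.2 against 43.0 ± 22.3 CPM (-0.97 ± 0.42, adjusted p = 0.52).

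Among the other class I and class I-like heavy chains, 13 of the 24 listed genes could be tested and none passed the edgeR or the DESeq2 test in any comparison, nor did any reach an unadjusted p under 0.05. Their median was -0.66 with injury, with 11 of 13 negative (50.2% of all genes were), and 0.36 for uninjured meninges over lung, with 7 of 13 positive (50.1% of all genes). In none of the 13 did every injured library lie below every uninjured one (6.79% of all genes), and in none above (5.35%). H2-Q7 had mean levels of 231 ± 41.0, 190.1 ± 50.8 and 171 ± 29.3 CPM (uninjured meninges, injured meninges, lung). For H2-Q4 the means were 76.5 ± 15.6, 48.5 ± 12.2 and 49.0 ± 11.0 CPM in that order, with overlap (injury log2 fold change -0.66 ± 0.37, adjusted p = 0.64 in edgeR). H2-T22 went the other way, at 9.54 ± 1.80, 13.0 ± 3.37 and 19.1 ± 2.68 CPM (injury log2 fold change 0.45 ± 0.68, adjusted p = 0.90 in edgeR). Its uninjured meninges libraries all lay below lung (10.6% of all genes). These genes resemble H2-K1 and H2-D1, and the assignment of reads among them is uncertain in the same way.

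Regulators of class I transcription numbered 18, and none passed the edgeR test. DESeq2 called 0, 1 and 3 in the 3 comparisons, beside 2.86%, 3.53% and 7.59% of the genes it tested. An unadjusted p under 0.05 was reached by 1, 3 and 3, beside 8.94%, 7.98% and 13.3% of all genes. Irf1, an interferon-induced factor that binds class I and immunoproteasome promoters, averaged 30.3 ± 7.57, 23.3 ± 13.3 and 24.2 ± 2.10 CPM in uninjured meninges, injured meninges and lung, with overlap. Nfkb1, an NF-kB subunit, averaged 625 ± 152, 876 ± 152 and 1225 ± 299.9 CPM, and its uninjured meninges libraries lay below lung (-0.97 ± 0.22, adjusted p = 0.070).

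The interferon receptor and kinase list held the only gene of the 7 lists that passed the edgeR test with injury. This was 1 of its 10 genes, beside 0.192% of all genes. Ifngr1, the ligand-binding chain of the interferon gamma receptor, was at 88.7, 60.3 and 135 CPM in uninjured meninges, 258, 384 and 273 CPM in injured meninges and 181, 209.8 and 197 CPM in lung. It rose with injury by 1.69 ± 0.29 on the log2 scale (adjusted p = 0.024), and the groups did not overlap. Leaving out uninjured meninges 1, uninjured meninges 2 or injured meninges 2 ended the call, with edgeR adjusted p-values of 0.12, 0.11 and 0.069, as did the fit of only the 6 libraries compared (0.12). The other 9 genes of the list did not pass.

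Of 20 interferon gamma target genes outside class I, mostly guanylate-binding proteins and immunity-related GTPases, 19 were tested. None passed with injury in edgeR, DESeq2 called 3 (2.86% of all genes it tested), and 8 had an unadjusted p under 0.05 (8.94% of all genes). Of these 19, 17 had a negative injury difference (50.2% of all genes), with a median of -0.87, and in 11 every injured library lay below every uninjured one (6.79% of all genes). Gbp6, a guanylate-binding protein, was at 18.5, 15.7 and 30.6 CPM in uninjured meninges, 3.11, 2.15 and 3.20 CPM in injured meninges and 30.0, 12.3 and 6.66 CPM in lung (injury log2 fold change -2.93 ± 0.82, adjusted p = 0.27 in edgeR). Gbp4 was at 221, 307 and 299 CPM without injury and at 174, 107 and 221 CPM with it (-0.72 ± 0.27, adjusted p = 0.48). Cxcl10, an interferon-induced chemokine, was at 0 in all 3 injured libraries, against 9.63, 1.48 and 1.54 CPM without injury (adjusted p = 0.097 in edgeR). By group means this was at least 20.9-fold lower when 3 counts per library are taken as the limit. The mean without injury came mostly from uninjured meninges 1.

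For uninjured meninges over lung the same list gave 15 of 19 positive differences (50.1% of all genes) and a median of 0.71. None passed in edgeR, DESeq2 called 4 (3.53% of all genes it tested), and 6 had an unadjusted p under 0.05 (7.98% of all genes). Between injured meninges and lung 2 passed (1.05% of all genes did). Irgm1, an immunity-related GTPase, was higher in injured meninges, at 71.8, 175 and 87.4 against 20.6, 33.1 and 19.6 CPM (2.19 ± 0.41, adjusted p = 0.016 in edgeR). Cxcl10 was lower, at 0 against 2.40, 34.9 and 30.9 CPM in lung (adjusted p = 0.014 in edgeR). By group means this was at least 113-fold, and the lung mean came mostly from lung 2 and 3. Both calls were lost without lung 3 (adjusted p = 0.093 and 0.066), Irgm1 also without lung 1 (0.076) and Cxcl10 without lung 2 (0.060).

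**Figure D4:**
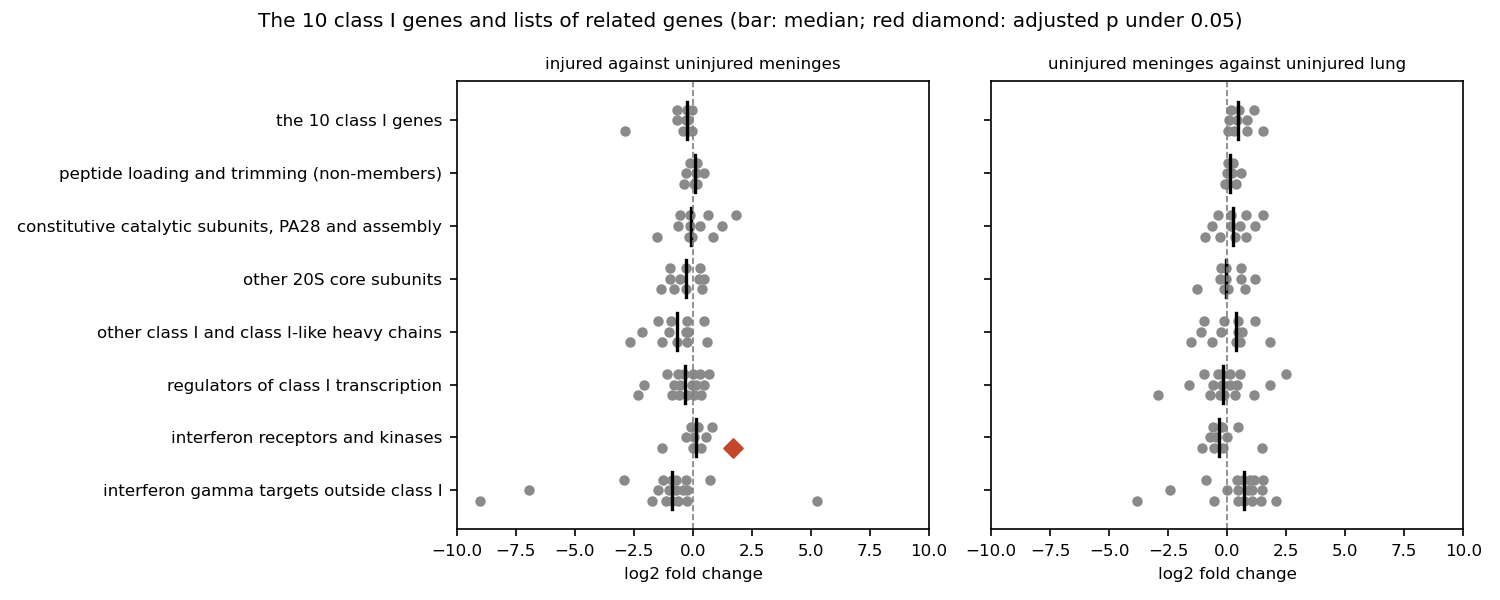
Fitted log2 fold changes (horizontal axis) of the 10 class I genes and of the 7 lists of related genes, 1 point per tested gene, for injury (left) and for uninjured meninges against lung (right). Black bars mark list medians, -0.26 and 0.46 for the 10 genes, and the single red diamond is Ifngr1, the only gene of these lists past an adjusted p of 0.05 in these 2 panels.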

How the data were processed

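The authors deposited unnormalized read counts, 1 whole number per gene and library. The submitters' processing notes name STAR, HTSeq, FastQC and mm9, and no version or role of these was given. Per the labels' protocols, RNA was extracted with PicoPure and amplified with Ovation RNA-Seq System V2, so reads are not independent molecules, and floors cover counting error only. Symbols came from the table for 15969 genes and from a reference list for 7407, and 90 kept the identifier. The members and lists were chosen with earlier results of these data known.

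Counts were tested with edgeR 4.0.16 (R 4.3.3): filterByExpr by group, trimmed mean of M values, 1 robust quasi-likelihood fit of all 9 libraries, Benjamini-Hochberg adjustment over 15117 genes, and a threshold of 0.05. The spread was wide (common biological coefficient of variation 0.91). SE was taken from the log2 fold change and the F statistic. CPM are counts scaled by these factors. Levels between genes used exon lengths of GENCODE M21, the bases in any annotated exon, retained introns included. DESeq2 1.42.0, other scalings and filters, a replicate block and leaving out each library were alternatives. The procedure was also run on simulated data, and the share of changes recovered there is not reported here. No replicate pair agreed within sampling noise (lowest chi-square per degree of freedom 62.8). Pairs of injured meninges libraries agreed least, at 125 to 154. Named beside the 10 genes are fixed pathway genes, called list genes, and up to 3 of smallest p per list and comparison, of which fewer are given. Some genes so chosen are not reported here.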

Additional observations from a re-analysis of the deposited data

How the results depend on the processing

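Over 66 results and 18 settings, 1016 of 1098 alternative values kept their direction and side of the threshold or, for counts of genes called, stayed within 1.5 times the reported count. Under DESeq2 the genes called were 435 (injured against uninjured meninges), 536 (uninjured meninges against lung) and 1127 (injured meninges against lung), instead of 29, 96 and 159. With no filter they were 78, 193 and 296, and in fits of only the 6 libraries compared 12 and 226 for the comparisons other than injured meninges against lung. Leaving out 1 library gave 18 to 27, 51 to 196 and 54 to 230 calls. Of the 10 class I genes DESeq2 called 1, 2 and 1, and no other setting called any. Genes called with injury on the interferon receptor and kinase list went from 1 to 0 in the 6-library fit. They ranged from 0 to 1 without single libraries, and between uninjured meninges and lung 1 was called by DESeq2 and with no filter. Interferon gamma targets called with injury were 3 by DESeq2 and 1 with no filter, and 4 by DESeq2 for uninjured meninges against lung. For injured meninges against lung they were 1 under the filter of 10 CPM in 3 libraries and 0 to 2 without single libraries. Regulators called between uninjured meninges and lung were 1 with relative log expression factors, DESeq2, the stricter filter, the 6-library fit and the replicate block, 2 with no filter, and 0 to 1 without single libraries. Between injured meninges and lung they were 3 by DESeq2 and 0 to 1 without single libraries.

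Signs turned for the differences below, and the cause was not tested. Tap2 between uninjured meninges and lung was -0.010 (relative log expression), -0.012 (DESeq2), -0.00088 (stricter filter) and -0.0090 (6 libraries). The ratio of Psmb8 to Psmb5 in that comparison was 0.099 with 2 CPM added and -0.88 to 0.051 without single libraries. That of Psmb9 to Psmb6 was -0.029 with 0.1 CPM added and -0.60 to 0.50 without single libraries. Without single libraries the injury differences spanned -0.21 to 0.10 for H2-D1, -1.21 to 0.22 for Tap2, -0.75 to 0.056 for Tapbp, -1.43 to 0.53 for Psmb10 and -3.93 to 0.026 (reported as -2.34) for the ratio of Psmb10 to Psmb7. Differences of uninjured meninges from lung spanned -0.30 to 0.34 for Tap2 and -0.19 to 0.29 for Tapbp. Those of injured meninges from lung spanned -0.16 to 0.096 for B2m, -0.095 to 0.14 for H2-K1, -1.19 to 0.24 for Tap2, -0.68 to 0.14 for Tapbp, -0.95 to 1.03 for Psmb10 and -3.11 to 0.85 (reported as -1.52) for the ratio of Psmb10 to Psmb7, where the positive values of this ratio were those without injured meninges 2.

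Replicate numbers were shared between groups, and deviations of same-numbered libraries correlated by -0.039 to 0.10. Whether same-numbered libraries shared a pool, sort or preparation was not tested. With a replicate block 43, 136 and 183 genes were called, and Psmb10 between injured meninges and lung was -0.16. For the scarce genes Tap2 and Psmb10 the 95% intervals of the injury difference (-2.16 to 1.58 and -2.61 to 2.49) show how little this replication could resolve.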
